A study of Mus musculus with 8 samples.

Results

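The set described here is the 10 core circadian clock genes Arntl, Clock, Per1, Per2, Per3, Cry1, Cry2, Nr1d1, Nr1d2 and Dbp, in alphaTC6 cells that had received small interfering RNA (siRNA) against Klf4. The members were taken by symbol, and each matched 1 of the 55536 genes of the count table, so that all 10 were found. All 10 also passed the filter on low counts that left 16333 genes for testing. The cells are a mouse line of glucagon-producing pancreatic alpha cells, labelled WT in every sample. Lipofection for 48 h delivered either a pool of siRNAs against Klf4, a zinc finger transcription factor, or a scramble siRNA as control, and poly(A) RNA was sequenced from 4 libraries of each. Scramble replicates 1 and 2 and Klf4 siRNA replicates 1, 2 and 4 are labelled batch 1, and scramble replicates 3 and 4 and Klf4 siRNA replicate 3 batch 2. What a batch stands for is not stated, nor is the clock hour at which cells were collected or any step that would set their clocks to a common phase. The series' text calls the 4 libraries of a treatment biological replicates of this 1 line, and the extraction protocol speaks of islets where the sample labels give the line.

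The circadian clock is a feedback loop of transcription with a period of about a day. BMAL1 (the product of Arntl) and CLOCK pair and bind E-box sequences in the genes of the PER and CRY proteins, which return to the nucleus and inhibit that pair. In a further loop REV-ERB alpha and beta (Nr1d1 and Nr1d2) repress Arntl through ROR elements, where the ROR receptors activate it, and DBP activates genes with D-boxes. Pancreatic islet cells, alpha cells among them, have such clocks, and the clock takes part in the timing of hormone secretion.

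Known elements of this loop were looked for in the members' promoters. RefSeq promoter sequences on GRCm38.p6, from 250 bases before to 50 after a transcription start, were searched on both strands in the 9 members with an entry (all but Per2), for an E-box (CACGTG), a D-box (TTATGNAA), a ROR element (NTAGGTCA), a cAMP response element (TGACGTCA) and the word GGGTGTGG, which KLF factors can bind. An E-box was found in Cry1 and Per1, against 8.09% of 27025 genes with a promoter entry. D-boxes were found in Per3, at a pair of places, and in Per1, against 3.99% of genes, and a ROR element was found in Arntl, against 2.95%. No member's window held the cAMP response element (2.03% of genes) or the KLF word (4.09%), and the other members' windows held none of the 5 words. The lines below give 30 bases around each match, 5′ to 3′ on the gene's strand, with the matched word in capitals, since such elements are how clock proteins are known to act on each other's genes.
Cry1 E-box, position -60, chr10:85185097-85185126, minus strand: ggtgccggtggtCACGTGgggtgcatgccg
Per1 E-box, position -166, chr11:69098771-69098800, plus strand: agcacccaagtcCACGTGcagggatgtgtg
Per1 D-box, position -24, chr11:69098914-69098943, plus strand: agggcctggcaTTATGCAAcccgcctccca
Per3 D-box, position -205, chr4:151044852-151044881, minus strand: cgacccgcgcgTTATGTAAggtactcgggg
Per3 D-box, position -158, chr4:151044805-151044834, minus strand: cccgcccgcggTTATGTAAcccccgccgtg
Arntl ROR element, position 30, chr7:113207529-113207558, plus strand: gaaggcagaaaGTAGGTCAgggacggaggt
Positions are those of the first base of the match counted from the transcription start, negative before it. A match is a description of the sequence, and binding was not measured here. Sequence outside these windows and variants of the words were not searched, so a member without a match may carry such elements elsewhere.

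Libraries held 45954151 to 64185987 counts. Klf4, the targeted gene, had 39.2, 35.1, 46.3 and 46.8 CPM (counts scaled to library size with TMM factors) in scramble replicates 1 to 4 and 12.5, 11.5, 19.8 and 18.8 CPM in Klf4 siRNA replicates 1 to 4. Every Klf4 siRNA library was below every control, at a log2 fold change of -1.33 ± 0.17 (SE, edgeR quasi-likelihood, adjusted p = 0.0083; 0.0524 without scramble replicate 1). Of 9 alpha cell markers 8 had enough counts to be tested, with Gcg, the glucagon gene, at 1065 to 8913 CPM, while Gc had at most 4 counts in a library. Of the 6 beta cell markers Ins1, Ins2 and Pdx1 had 0 counts in all libraries, and of the 5 acinar and duct markers Prss1 did. Of the 8 tested alpha cell markers 4 were lower after Klf4 siRNA, Gcg and Slc7a2 among them, beside 6.81% of all tested genes, and between batches 3 were higher and 1 lower in batch 2, beside 16.8% and 15.9%. None of the 3 markers of delta and PP cells had enough counts to be tested (sum at most 0.203 CPM). No tested marker of the other cell types was called for treatment (1 of 6 beta, 2 of 5 acinar and duct, 1 of 4 fibroblast, 1 of 3 endothelial and 1 of 3 leukocyte markers could be tested). Between batches the summed fibroblast markers were at 5.30 to 7.20 CPM in batch 1 and 3.09 to 3.43 CPM in batch 2, a sum made up almost wholly of Pdgfra (means of 6.42 and 3.04 CPM, called lower), with Col1a1, Col3a1 and Dcn at 0.156 CPM or less. Acinar and duct markers summed to 7.32 to 8.69 and 9.55 to 11.1 CPM, of which Sox9 was higher in batch 2 (1.32 and 4.16 CPM, called) and Cela1 was not called (6.85 and 6.08 CPM). Leukocyte markers summed to 1.56 to 1.67 and 2.00 to 2.50 CPM, nearly all of it Cd68 (1.61 and 2.19 CPM, called higher), with Ptprc and Cd3e at 0.0212 CPM or less. Beta cell markers (3.09 to 3.93 CPM) and endothelial markers (0.255 to 0.437 CPM) had 0 called. The part of these cell types in the batch differences of clock genes was not tested. The batches differed in 5343 genes (32.7% of those tested), Gcg among them at 6.97-fold. Klf4 siRNA replicate 4, labelled batch 1, departed from its batch in some genes only. It had the Gcg level of batch 1 but levels of Per1, Cry2 and several rapidly induced genes like those of batch 2. Values without it are therefore given beside the results of Per1 and Cry2 and of the members called for treatment. Over genes together this library was nearer to every other batch 1 library than to any of batch 2 (10.2 to 25.2, against 34.6 to 86.2, as chi-square per degree of freedom).

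Per length of annotated exon, Nr1d1 was the most abundant member and Per3 the least. Its scramble level was 24.0 ± 2.23 CPM per kb (SD, n = 4), followed by Clock (13.4), Cry2 (12.9), Dbp (12.6), Per1 (11.1), Nr1d2 (11.1), Cry1 (10.1), Per2 (7.44), Arntl (2.68) and Per3 (0.832 ± 0.106). From Clock to Nr1d2 the ranges of neighbours in this order overlapped over the 4 scramble libraries, so neighbours there did not differ beyond their spread, whereas Clock (12.2 to 14.4) lay wholly above Nr1d2 (10.8 to 11.4). Nr1d1, Per2, Arntl and Per3 each lay outside the ranges of their neighbours, and Nr1d2 (at least 10.8) and Cry1 (at most 10.7) only just so. Arntl was thus well below its partner Clock on this scale, with a Clock to Arntl ratio per kb of 4.23 to 6.62 in single libraries. Lengths are of all annotated exons, of which a cell may use a part.

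**Figure D1:**
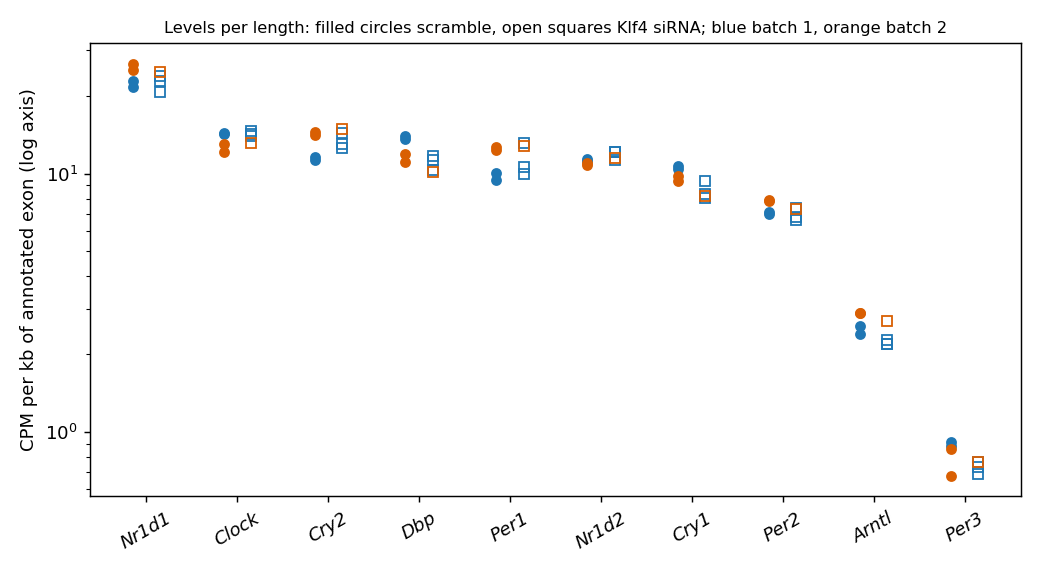
Level of each clock gene per kb of annotated exon (log axis) in each library, for scramble (filled circles) and Klf4 siRNA (open squares), with batch 1 in blue and batch 2 in orange. Nr1d1 stands highest, Arntl and Per3 lowest, and the members between them lie close together.

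After Klf4 siRNA, Cry1 and Dbp fell, Cry2 rose, and the other 7 members did not pass the test. The counts were thus 3 of 10 members called (1 higher, 2 lower), beside 11.7% of all tested genes (4.88% higher, 6.81% lower). At an unadjusted p under 0.05 there were 6 of 10, beside 23.9% of all genes. Their median log2 fold change was -0.034, against 0.000043 over all tested genes, and their median absolute change was 0.14, against 0.077. No member moved far: the highest of the 8 libraries exceeded the lowest by 1.13 times for Nr1d2 and by 1.39 times for Per1, with the other members between. In bulk RNA, fewer cells with a transcript and less of it per cell cannot be told apart.

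**Figure D2:**
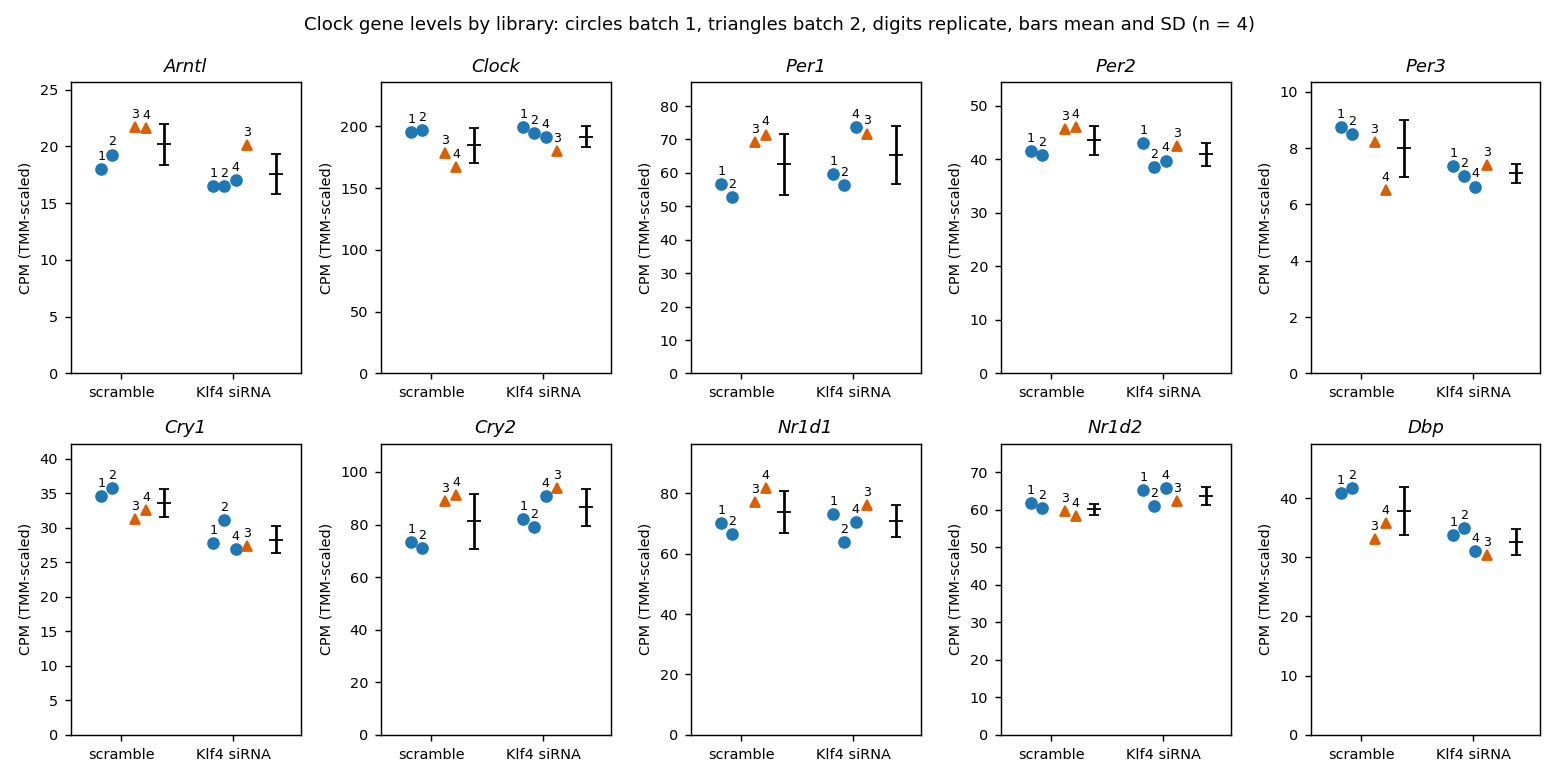
CPM of each clock gene in each library, by treatment; circles are batch 1, triangles batch 2, digits the replicate, and bars the mean and SD of 4 libraries. For Cry1 the Klf4 siRNA libraries all lie below the controls, and for Dbp and Arntl they do so within each batch.

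The cryptochromes, the repressors that bind the CLOCK and BMAL1 pair, moved in opposite directions. Cry1 (GRCm38 chromosome 10, 85131700 to 85185064, minus strand) had 34.7, 35.8, 31.2 and 32.6 CPM in scramble replicates 1 to 4 and 27.8, 31.1, 27.4 and 26.9 CPM in Klf4 siRNA replicates 1 to 4. The groups did not overlap, and it was the only member of which this held over all 8 libraries (10.5% of tested genes had groups apart, 5.55% with all 4 Klf4 siRNA libraries lower and 4.97% with all 4 higher). It fell by 0.27 on the log2 scale ± 0.05 (SE, edgeR adjusted p = 0.000418), to 82.9% of the control level, with changes of -0.30 within batch 1 and -0.22 within batch 2. Leaving out the batch term ended the call at nearly the same size (-0.25, edgeR adjusted p = 0.0725).

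Cry2 (chromosome 2, 92403646 to 92434043, minus strand) had 73.5, 71.0, 89.0 and 91.4 CPM in scramble replicates 1 to 4 and 82.1, 79.0, 93.8 and 91.0 CPM in Klf4 siRNA replicates 1 to 4. Over all libraries the groups overlapped, whereas within each batch every Klf4 siRNA library was above its controls, in batch 2 by little. Its log2 fold change was 0.16 ± 0.05 (SE, edgeR adjusted p = 0.035), 111.7% of the control level, with 0.22 within batch 1 and 0.057 within batch 2. The call was lost without scramble replicate 1, 2 or 3 or Klf4 siRNA replicate 1 (values of 0.15, 0.13, 0.17 and 0.16, edgeR adjusted p = 0.146, 0.179, 0.0747 and 0.0815) and without the batch term (0.090, 0.728). Without Klf4 siRNA replicate 4 the value was 0.12 (edgeR adjusted p = 0.0139). The annotation D930015M05Rik covers 4.67% of the exon bases of Cry2 on the opposite strand and had at most 29 counts in a library.

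The ratio of Cry2 to Cry1 per kb of batch 1 libraries was 1.12 and 1.05 with scramble siRNA and 1.56, 1.34 and 1.79 with Klf4 siRNA (replicates 1, 2 and 4). In batch 2 it was 1.51 and 1.48 in the controls and 1.81 after Klf4 siRNA. The Klf4 siRNA values were higher in both batches, and the controls of batch 2 lay among the treated values of batch 1. This ratio was chosen after the levels were seen and is given as a description.

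Dbp (chromosome 7, 45705088 to 45710203, plus strand) encodes a transcription factor of the PAR bZIP family that carries the rhythm to D-box genes, and it is itself driven by CLOCK and BMAL1. Its levels were 40.8, 41.7, 33.1 and 35.7 CPM in scramble replicates 1 to 4 and 33.7, 34.9, 30.3 and 31.0 CPM in Klf4 siRNA replicates 1 to 4. The pooled groups overlapped, with scramble replicate 3 of batch 2 below Klf4 siRNA replicates 1 and 2 of batch 1, but within each batch all Klf4 siRNA libraries were lower. It fell by 0.27 on the log2 scale ± 0.04 (SE, edgeR adjusted p = 0.000357), to 83.2% of the control level, with -0.31 within batch 1 and -0.18 within batch 2. Without the batch term the change was -0.22 and was not called (edgeR adjusted p = 0.228). Without Klf4 siRNA replicate 4 Dbp was at -0.23 (edgeR adjusted p = 0.000213) and Cry1 at -0.24 (0.000342). Sphk2, a sphingosine kinase gene, shares 18% of the exon bases of Dbp on the opposite strand. The log2 fold change of Sphk2 was 0.10 (edgeR adjusted p = 0.0693). How reads in the shared stretch were counted is not known, since the use of strand is not given in the sources used here.

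Of the activators, Arntl missed the threshold and Clock was close to no change. Arntl had 18.1, 19.3, 21.7 and 21.7 CPM in scramble replicates 1 to 4 and 16.5, 16.5, 20.1 and 17.0 CPM in Klf4 siRNA replicates 1 to 4. Each batch had its Klf4 siRNA libraries below its controls, as for Cry1 and Dbp, so that 3 of 10 members showed this order, beside 13.0% of tested genes; Cry2 alone showed the reverse order in both batches, beside 11.4%. The log2 fold change of Arntl was -0.14 ± 0.05 (SE, edgeR adjusted p = 0.0535). Without Klf4 siRNA replicate 4 it was called (-0.15, edgeR adjusted p = 0.0417), and with genes limited to a mean of at least 5 CPM too (0.0311). Clock, at 167.0 to 197.1 CPM in controls and 179.6 to 199.6 CPM after Klf4 siRNA, had a log2 fold change of 0.016 ± 0.029 (SE, edgeR adjusted p = 0.814).

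None of the period genes, which encode the partners of the cryptochromes in repression, passed the threshold. Per1 had 56.7, 52.9, 69.2 and 71.5 CPM in scramble replicates 1 to 4 and 59.7, 56.2, 71.8 and 73.8 CPM in Klf4 siRNA replicates 1 to 4. The groups overlapped, the batch 2 libraries were above those of batch 1 in both treatments with 1 exception, and Klf4 siRNA replicate 4 of batch 1, the exception, was the highest of all. Its log2 fold change of 0.14 had the largest standard error of the members, 0.10 (edgeR adjusted p = 0.507), and was 0.058 ± 0.033 (SE) without that library (edgeR adjusted p = 0.304). Per2 ranged from 40.8 to 46.1 CPM in controls and from 38.6 to 43.1 CPM after Klf4 siRNA, a log2 fold change of -0.057 ± 0.038 (SE, edgeR adjusted p = 0.405). Per3, the least abundant member and the one with D-boxes at a pair of places, had 8.76, 8.50, 8.22 and 6.51 CPM in scramble replicates 1 to 4 and 7.35, 7.02, 7.39 and 6.64 CPM in Klf4 siRNA replicates 1 to 4. Scramble replicate 4 was the lowest of all 8. The log2 fold change was -0.19 ± 0.08 (SE, edgeR adjusted p = 0.153), and it was called without scramble replicate 4 (-0.26, 0.0203) and in batch 1 alone (-0.30, 0.038).

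The REV-ERB genes, which encode the nuclear receptors that repress Arntl, did not pass either. Nr1d1 ranged from 66.4 to 81.7 CPM in controls and from 63.7 to 76.1 CPM after Klf4 siRNA, with a log2 fold change of -0.011 ± 0.042 (SE, edgeR adjusted p = 0.92). It is overlapped by Thra, a thyroid hormone receptor gene on the opposite strand, over 8.55% of its exon bases. Thra fell by 0.20 (standard error 0.03, edgeR adjusted p = 0.000215) and was lower in all 4 Klf4 siRNA libraries. Whether reads were assigned by strand is not given in the sources used here, so how reads in that stretch were counted is not known. Nr1d2 was the steadiest member, at 58.3 to 61.8 CPM in controls and 61.0 to 65.7 CPM after Klf4 siRNA, a log2 fold change of 0.071 ± 0.032 (SE, edgeR adjusted p = 0.176).

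**Figure D3:**
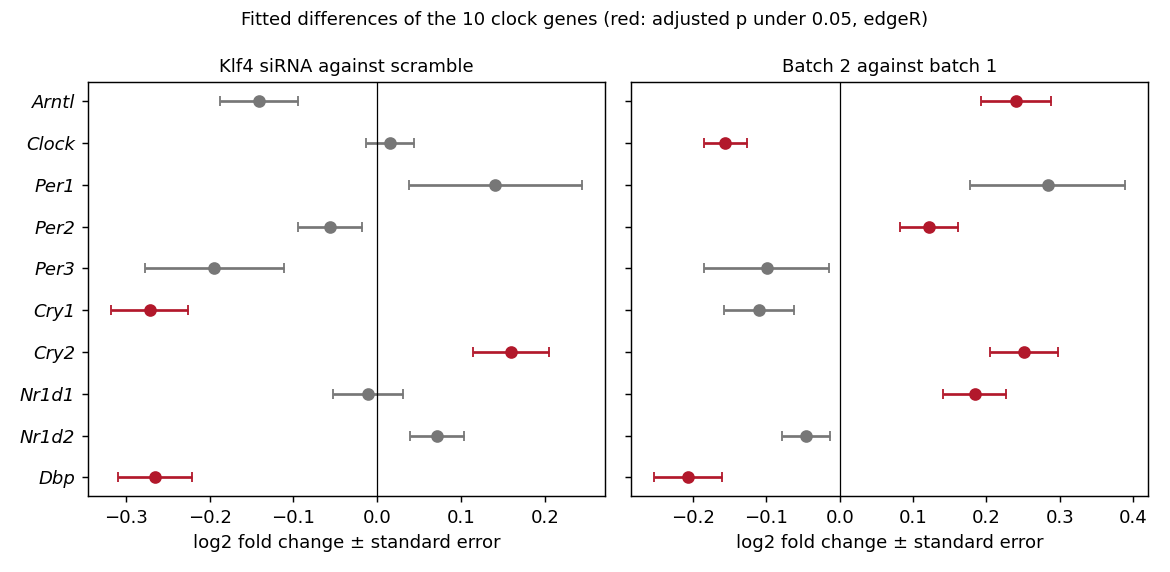
Fitted log2 fold change and standard error of each clock gene for Klf4 siRNA against scramble (left) and batch 2 against batch 1 (right), with values past the threshold in red. On the left Cry1 and Dbp lie near -0.27 and Cry2 at 0.16, and on the right 6 members are past the threshold in both directions.

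**Figure D4:**
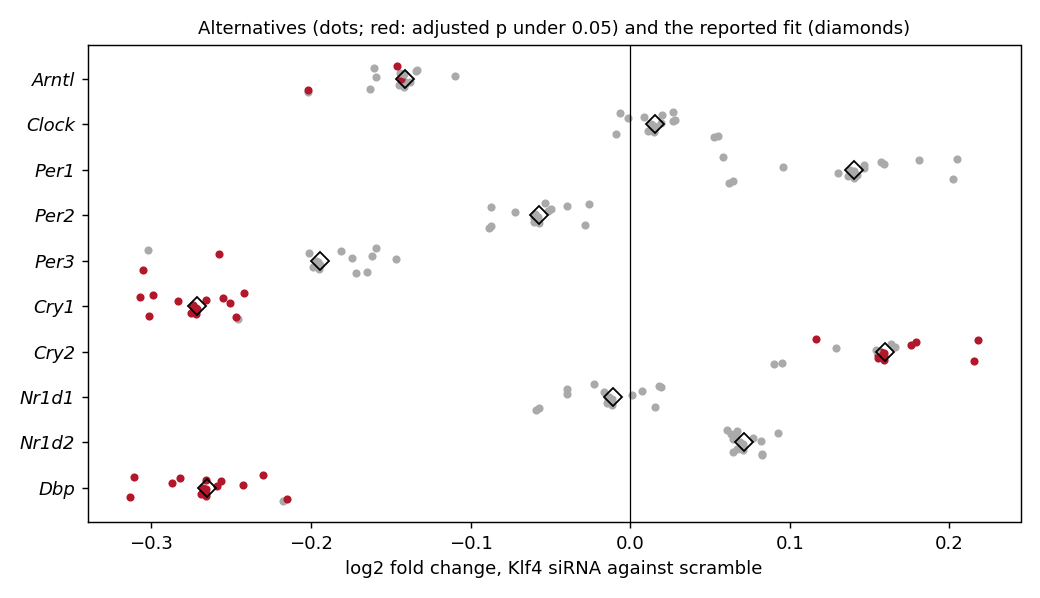
Log2 fold change of each clock gene for Klf4 siRNA against scramble under each alternative setting (dots, red where the adjusted p was under 0.05) and in the reported fit (diamonds). Cry1 and Dbp stay between -0.31 and -0.21 under all of them and are called under all but the fit without the batch term, while Clock and Nr1d1 lie on both sides of 0.

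The batches differed in more clock genes than the treatments did, with 6 of 10 members called (4 higher, 2 lower in batch 2), beside 32.7% of all tested genes (16.8% higher, 15.9% lower). At an unadjusted p under 0.05 there were 8 of 10, beside 41.0%. Both contrasts use the same 8 libraries. Arntl, Cry2, Nr1d1 and Per2 were higher in batch 2, and Clock and Dbp were lower. The batch groups did not overlap for 3 members, Arntl, Clock and Nr1d1, beside 29.4% of tested genes.

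Arntl and Clock, whose products work as a pair, went in opposite directions between batches. Arntl had a mean of 17.5 CPM in batch 1 and 21.2 CPM in batch 2, a log2 difference of 0.24 ± 0.05 (SE, edgeR adjusted p = 0.000477), and Clock had 195.6 and 175.1 CPM (-0.16, standard error 0.03, 0.000365). For Cry2 the means were 79.3 and 91.4 CPM (0.25, standard error 0.05, edgeR adjusted p = 0.000735). With Klf4 siRNA replicate 4 left out Cry2 differed by 0.28 (edgeR adjusted p = 1.26e-07). Nr1d1 differed by 0.18 (edgeR adjusted p = 0.0032) and Per2 by 0.12 (0.0215), and the call of Per2 was lost without any 1 of the 4 scramble libraries (0.070, 0.102, 0.0755 and 0.0611 without replicates 1 to 4) and with scaling to library size alone (0.143). Dbp differed by -0.21 (edgeR adjusted p = 0.00147), which was not called without the treatment term (-0.14, 0.374). Dbp was thus lower in batch 2 while Nr1d1, also an E-box target of CLOCK and BMAL1, was higher. Cry1, Nr1d2 and Per3 were not called, at -0.11, -0.045 and -0.10; Cry1 was called without Klf4 siRNA replicate 4 (-0.13, edgeR adjusted p = 0.018), in scramble libraries alone (-0.14, 0.0465) and with scaling to library size alone (-0.15, 0.0399), and Per3 changed sign without scramble replicate 4 (0.0034, 0.981).

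The batch difference of Per1 crossed the threshold when a single library was left out. It differed by 0.28 ± 0.11 (SE) and was not called (edgeR adjusted p = 0.101), but without Klf4 siRNA replicate 4 the value was 0.34 ± 0.03 (SE, edgeR adjusted p = 1.55e-08). In scramble libraries alone it was 0.36 (edgeR adjusted p = 5.56e-05), and it was also called with scaling to library size alone (0.25, 0.0491) and by DESeq2 (0.28, 0.0417). The interaction of batch and treatment was called for 0 of 10 members and 0 genes in all (0.0% of tested genes) with edgeR and also with DESeq2. At an unadjusted p under 0.05 it was 0 of 10 members and 540 genes (3.31%) with edgeR. The interaction values with the lowest p were those of Cry2 (-0.16, standard error 0.08, unadjusted p = 0.0731) and Per3 (0.30, standard error 0.16, 0.081). Batch 2 holds a single Klf4 siRNA library, which limits this test.

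Klf4 siRNA replicate 4 is labelled batch 1 and had the Gcg level of that batch (1231 CPM, against 7640 CPM in Klf4 siRNA replicate 3), yet its Per1 and Cry2 levels were those of batch 2. On a scale from the mean of Klf4 siRNA replicates 1 and 2 (0%) to Klf4 siRNA replicate 3 (100%), it lay at 113% for Per1 and at 80.0% for Cry2, but at 31.0% for Clock, 28.6% for Nr1d1 and 15% for Arntl. Among the 5 members for which batch 2 lay apart from the other 4 libraries of batch 1, 2 were thus past the midpoint, beside 29.0% of the 5755 genes with such a gap. Of 7 genes with such a gap among those tied to cues that reset the clock, 4 were past it: Fos (115%), Nr4a1 (126%), Egr1 (78.9%) and Nr3c1 (146%). Fos, an immediate early gene, had 36.9, 25.5, 92.2 and 122.3 CPM in scramble replicates 1 to 4 and 30.6, 22.2, 105.1 and 129.7 CPM in Klf4 siRNA replicates 1 to 4, with the same 4 libraries high as for Per1. Ciart and Nfil3, a repressor of the CLOCK and BMAL1 pair and a repressor at D-boxes, lay at 111% and 92.2%, the 2 of 10 partners with such a gap that were past the midpoint; of 8 output genes 2 were, Usp2 (102%) and Noct (55.5%). Per1 is known as a gene that responds rapidly to such cues; the part of these genes in the clock gene values was not tested.

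**Figure D5:**
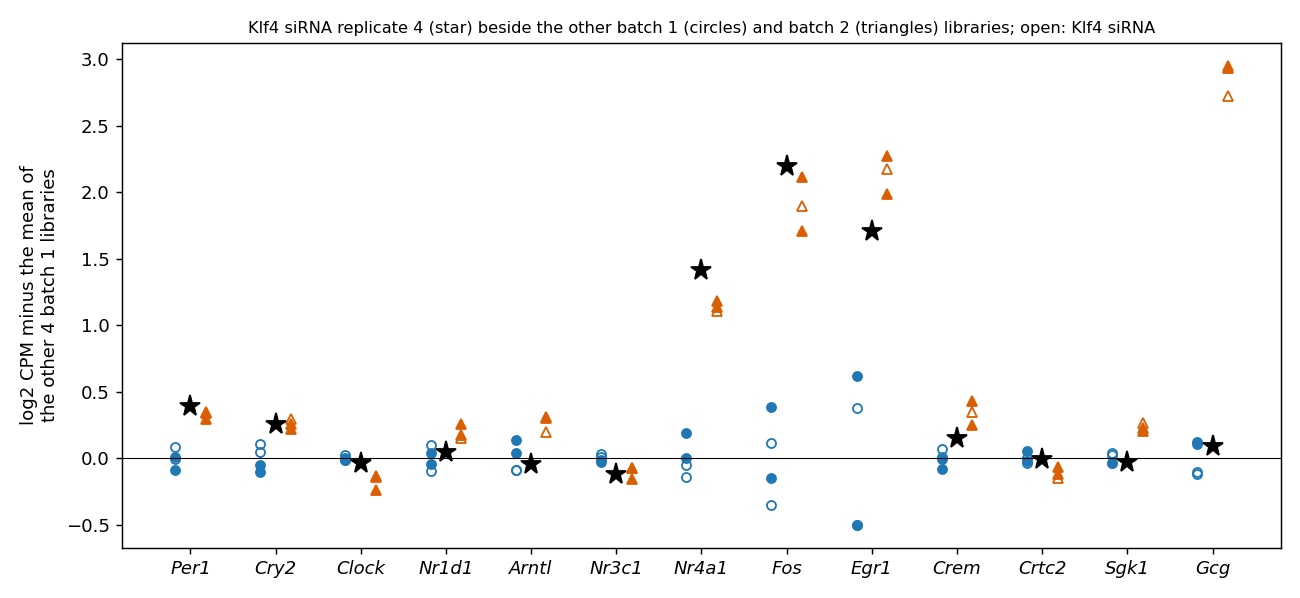
Log2 CPM relative to the mean of scramble 1, scramble 2, Klf4 siRNA 1 and Klf4 siRNA 2, for the members and the genes tied to resetting cues whose batch 2 libraries lie apart, and for Gcg. The star is Klf4 siRNA replicate 4; it lies with the batch 2 triangles for Per1, Cry2, Nr4a1 and Fos and with the batch 1 circles for Arntl, Sgk1 and Gcg.

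Of the wider clock, 3 of 20 tested partners and modifiers (22 listed) passed in the treatment comparison, all lower, beside 11.7% of all tested genes (6.81% lower). Rorb, which encodes a ROR receptor, a class that activates Arntl, was at -0.10 on the log2 scale (edgeR adjusted p = 0.0375), whereas Rora was at 0.040 (0.653). Tef, a relative of Dbp that binds the same D-boxes, fell by 0.12 (standard error 0.03, edgeR adjusted p = 0.00401), from 137.7 ± 1.53 to 126.0 ± 2.29 CPM (SD, n = 4 each). Hlf, the other relative, was at -0.10 (edgeR adjusted p = 0.0844). The list's median was -0.012. Npas2, the paralog of Clock, had too few counts to be tested (at most 2 in a library), and Arntl2, that of Arntl, was at 0.731 to 1.14 CPM.

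Clock output genes had 2 of 14 called, both higher, beside the same 11.7% (4.88% higher), a share near the background. Wee1, a kinase that delays entry into mitosis and is an E-box target of the clock, rose most, from 29.5, 31.9, 33.3 and 29.5 CPM in scramble replicates 1 to 4 to 39.7, 39.8, 37.3 and 37.9 CPM in Klf4 siRNA replicates 1 to 4. The groups did not overlap, and the log2 fold change was 0.31 ± 0.04 (SE, edgeR adjusted p = 6.81e-05). Hif1a, the hypoxia-responsive factor, rose by 0.11 (edgeR adjusted p = 0.012). The median of this list was -0.014. Of 14 genes tied to resetting cues 2 were called, also near the 11.7% of all genes, Klf9 (-0.35, edgeR adjusted p = 2.12e-07) and Crtc1, a coactivator of CREB (-0.13, 0.0104), with a list median of 0.030.

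Between batches, 7 of the 20 partners were called (4 higher, 3 lower), 9 of the 14 output genes (4 higher, 5 lower) and 4 of the 14 genes tied to resetting cues (3 higher, 1 lower), beside 32.7% of all tested genes. The counts of partners and of genes tied to cues were near that share. Partners with small adjusted p were Rorb (0.42, edgeR adjusted p = 1.12e-09), Csnk1e (2.17, at means of 0.221 and 1.01 CPM), Bhlhe41 (-0.32), Bhlhe40 (0.13) and Btrc (-0.14). Bhlhe40 and Bhlhe41, the DEC repressors that compete for E-boxes, thus differed in opposite directions. Among output genes, Lonrf3 had the smallest adjusted p (-0.47, 5.85e-07 with edgeR), and among genes tied to cues Sgk1, a glucocorticoid-induced kinase, did (0.25, 5.8e-07).

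The genes outside the set with the most similar profiles were found by the root mean square difference of centred log2 CPM over the 8 libraries, among 10389 genes with a mean of at least 5 CPM. For Dbp these were Nanos1, March9 and Vash1, with differences of 0.032, 0.033 and 0.037 against a spread of 0.156 in Dbp itself. Those of Cry1 were Agbl3, Ciao1 and Napepld (0.030, 0.041 and 0.044 against 0.147). Arntl was closest to Ubn1, Zdhhc9 and Gusb (0.030, 0.032 and 0.033 against 0.154), and Clock to Ahctf1, Slk and Gmip (0.014, 0.018 and 0.021 against 0.0845). None of these 12 genes was on the lists of clock partners, outputs or resetting cues. The libraries share batch and treatment, so these are descriptions of likeness over few samples.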

How the data were processed

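Poly(A) RNA was measured in 8 libraries, 4 per treatment, in 2 batches. The deposited values are raw counts per gene. The submitters' processing notes name FastQC, STAR, featureCounts and DESeq2 and the build mm10, without versions; the use of strand is not given in the sources used here. All 55536 identifiers and symbols matched GENCODE M21 (GRCm38), the source of exon lengths and overlaps. No column was left without a sample (0).

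Genes were kept with filterByExpr by treatment, library sizes scaled with TMM (factors 0.964 to 1.02), and batch and treatment fitted together in edgeR 4.0.16 (R 4.3.3, robust quasi-likelihood, 5 residual degrees of freedom), since the series' design text names edgeR with batch correction. P-values are two-sided, Benjamini-Hochberg adjusted over 16333 genes, with a threshold of 0.05. They set a fitted change against the variation between these libraries, moderated over genes. A standard error (SE) is the absolute fitted change divided by the square root of F. Within-batch changes use log2 CPM with a prior count of 2. Other fits used DESeq2 1.42.0 and limma 3.58.1. On simulated counts for the treatment comparison (16103 genes), 71.2% of changes of 0.3 and 98.7% of changes of 1 on the log2 scale were recovered at 1 CPM or more, with 7 false among 147 calls. No 2 libraries agreed within counting noise (chi-square per degree of freedom at least 10.2). The pair at 10.2 was Klf4 siRNA replicates 1 and 4.

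Named were Klf4, all members, up to 6 called genes per list and comparison, list genes at 0, and the 3 nearest profiles of 4 members. The members and lists were chosen with earlier results of these data known; Thra, Sphk2, D930015M05Rik, the ratios between members, the scale for Klf4 siRNA replicate 4 and, off the naming rule, Rora, Hlf, Npas2, Arntl2, Ciart, Nfil3, Fos, Nr4a1, Egr1, Nr3c1, Usp2, Cela1 and Cdkn1a, with the markers at low levels, were chosen after the values were seen. Some called list genes are counted but not reported by name here. Alternatives were other terms, samples, scalings, filters, tools and thresholds, and each library left out.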

Additional observations from a re-analysis of the deposited data

Results flagged for a closer look

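The highest Arntl level after Klf4 siRNA was that of replicate 3, the treatment's single batch 2 library (20.1 CPM, against 16.5 to 17.0 CPM in the others), with a gap to the nearest of 0.861 of the range. Of 33 groups of libraries examined over the members and Klf4, this was the 1 past the critical value, where chance gives 1.65.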

How the results depend on the processing

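The count of called members was 3 of 10 for the treatment. It was 0 without the batch term, and 2 to 4 when each library was left out in turn; the remaining settings gave 2 to 4. For the batch contrast the count was 6, and 5 to 8 under all alternatives; with each library left out it was 5 to 8. The interaction was called for 0 members under each alternative that could be fitted; without Klf4 siRNA replicate 3 it could not be. With each replicate left out, Klf4 lay between -1.46 and -1.24; it missed the threshold without scramble replicate 1 (-1.27, edgeR adjusted p = 0.0524) and in batch 1 alone (-1.39, 0.104). The sign of some values that were not called changed. For the treatment these were Clock (-0.0090 in batch 1 alone, -0.0016 without scramble replicate 4, -0.0065 without Klf4 siRNA replicate 3; highest 0.028 with 1 library out) and Nr1d1 (0.015 in batch 1 alone; 0.0013, 0.0073, 0.020 and 0.018 without scramble replicates 1 and 4 and Klf4 siRNA replicates 2 and 3; lowest -0.039 with 1 library out). For the batch contrast it was Per3 (0.0034 without scramble replicate 4; lowest -0.23 with 1 library out), and for the interaction Nr1d2 (-0.0056, -0.0099 and -0.023 without scramble replicates 1 and 4 and Klf4 siRNA replicate 2; highest 0.031 with 1 library out). The causes were not tested. Over all genes, 1909 were called for the treatment, and 409 without the batch term, 1232 in batch 1 alone, 934 with scramble replicate 1 left out, 1012 with scramble replicate 2 and 1232 with Klf4 siRNA replicate 3, and 997 at an adjusted p under 0.01. Without scramble replicate 3 the interaction was called for 13 genes.

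Replicate numbers are shared by the treatments, but the correlations of deviations between libraries 1 to 4 of each treatment were 0.492, 0.416, 0.72 and -0.34, so the numbers were not taken as pairs. With the replicate block replacing batch, the test called 1220 genes and 3 members, Cry1, Dbp and Arntl (-0.20, edgeR adjusted p = 0.0492), and not Cry2 (0.095, 0.138). At these depths Per3, with at most 527 counts in a library, was the least precisely counted member.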

Other observations

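Ratios to Arntl within a library, which do not depend on library size, were chosen for description after the values were seen. On a log2 scale per kb, Nr1d2 to Arntl was at 2.25 and 2.12 in the batch 1 controls against 2.46, 2.36 and 2.43 after Klf4 siRNA, and at 1.93 and 1.91 in the batch 2 controls against 2.11. It was thus higher after Klf4 siRNA within each batch. Per1 to Arntl ran from 1.87 to 2.14 in controls and from 2.19 to 2.53 after Klf4 siRNA, with no overlap, though neither Per1 nor Arntl was called. Dbp to Arntl went the other way, at 2.51 and 2.44 in the controls and 2.36, 2.41 and 2.19 in the Klf4 siRNA libraries of batch 1. In batch 2 it was 1.94 and 2.05 against 1.92, below every library of batch 1 in both treatments. Clock to Arntl was higher after Klf4 siRNA within each batch, with pooled ranges of 2.08 to 2.57 in controls and 2.29 to 2.73 after Klf4 siRNA. Per2 to Arntl was higher in batch 1 and lay between the controls in batch 2 (pooled ranges of 1.44 to 1.56 and 1.44 to 1.74). Within batch 1 the treatments overlapped for Nr1d1 to Arntl (3.07 to 3.25 and 3.21 to 3.44, pooled) and Per3 to Arntl (-2.09 to -1.40 and -1.80 to -1.52, pooled). These are values over pairs of members, with no test. All of them share Arntl, which itself changed by -0.16 within batch 1 and -0.11 within batch 2 on the log2 scale. The ratios are therefore not separate observations.

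Cdkn1a, the gene of the cell cycle inhibitor p21 and a known clock output, was higher after Klf4 siRNA in batch 1 and overlapped in batch 2. It had 84.6 and 87.0 CPM in the controls and 104.9, 117.0 and 121.4 CPM after Klf4 siRNA in batch 1, and 116.5 and 131.2 CPM against 131.2 CPM in batch 2. Its log2 fold change was 0.30 ± 0.09 (SE, edgeR adjusted p = 0.117).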
